A study of Homo sapiens with 12 samples.

Results

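Mitochondria are kept in shape by fusion and fission and are cleared by mitophagy, the autophagy of whole mitochondria. PINK1 is a kinase that builds up on depolarised mitochondria and starts the ubiquitin-dependent arm of mitophagy, while BNIP3, BNIP3L and FUNDC1 are outer membrane receptors that bind LC3-family proteins directly. TBC1D15 is a GTPase-activating protein for RAB7 that acts at mitochondria during mitophagy. MFN1 and MFN2 fuse the outer membrane, OPA1 fuses the inner membrane and maintains cristae, and DNM1L (DRP1) constricts mitochondria in fission. Neurons depend on these steps because mitochondria have to reach and be renewed in long axons. Mutations in MFN2 cause an inherited axonal neuropathy and mutations in OPA1 an inherited optic atrophy.

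Transcript levels of these 9 genes were examined, chosen by name from the 28278 gene symbols of the count table. RNA had been sequenced from cultures differentiated towards motor neurons. They came from the wild-type human embryonic stem cell line WA09-Islet1-GFP, in which GFP reports Islet1, a transcription factor of motor neurons. Cultures received 10 µM cis-chlordane, an organochlorine pesticide, or the solvent DMSO alone for 16 hours (the methods text of the study gives a different concentration), and were sorted by FACS into GFP-positive and GFP-negative cells. The 4 groups were control GFP-positive, treated GFP-positive, control GFP-negative and treated GFP-negative cells, with 3 libraries each, numbered as biological replicates, which the study defines as separate thaws of stored cells. A single cell line was used, so the p-values describe the spread between these libraries and not between donors. Total counts per library ranged from 23414935 to 38347050, and all 9 genes had enough counts to be tested in all 5 comparisons. The smallest raw count of any of them in a library was 230, for TBC1D15 in a control GFP-negative library.

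The labelled cell type was checked with 10 motor neuron markers (ISL1, ISL2, MNX1, LHX3, LHX4, CHAT, SLC18A3, SLC5A7, NEFL and STMN2). Levels are given as CPM, counts scaled to library size with TMM factors over the 12 libraries. The summed markers reached 7694 to 9540 CPM in control and 4811 to 6339 CPM in treated GFP-positive libraries, against 2194 to 2276 and 1205 to 1306 CPM in control and treated GFP-negative libraries. Most of this sum came from NEFL and STMN2. ISL1, the gene behind the reporter, stood at 65.7 ± 3.13 CPM in control and 12.0 ± 3.71 CPM in treated GFP-positive cells, against 2.57 ± 0.204 and 0.549 ± 0.152 CPM in control and treated GFP-negative cells (SD, n = 3 each). Not every marker followed the sort, since mean LHX3 was 1.91 CPM in GFP-positive and 4.44 CPM in GFP-negative control cells, and in treated cells the means of ISL2, MNX1, LHX3 and LHX4 were higher in the GFP-negative fraction. Summed markers of neural progenitors ranged from 2346 to 3239 CPM in GFP-positive and from 5870 to 8263 CPM in GFP-negative libraries. Most of this sum came from VIM and NES, and the mean of HES5 was at most 0.0415 CPM in any group. Of the pluripotency markers, POU5F1 was at 0 in every group and NANOG in 3 of the 4 groups, and the sum of these and LIN28A was 44.3 to 201 CPM. Markers of cycling cells summed to 80.0 to 112 CPM in control and 39.3 to 43.4 CPM in treated GFP-positive libraries, and to 793 to 845 and 248 to 300 CPM in control and treated GFP-negative libraries. Markers of mesenchymal cells summed to 545 to 642 CPM in control and 190 to 413 CPM in treated GFP-negative libraries. Nearly all of that sum was COL1A1 (means of 598 and 281 CPM), while COL3A1, LUM and DCN had means of at most 2.97 CPM there. In bulk libraries, fewer cells of a type and less RNA per cell cannot be told apart, and the part of a changed cell mixture in the results was not tested. Control GFP-negative replicate 3 stood apart, with 6064 CPM of red blood cell markers (mainly haemoglobin genes) against 6.50 and 4.23 CPM in the other control GFP-negative libraries, 232, 0.364 and 205 CPM in the treated GFP-negative libraries and at most 26.4 CPM in any GFP-positive library. The interaction is given with and without it, as are the changes of the 9 genes that it moves past the threshold. Counts of the pathway lists are given without it where they differ, whereas the correlations between genes include it.

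For 7 of the 9 genes a promoter was found in a RefSeq table of GRCh38.p14 that holds 250 bases before and 50 bases after each start site. Promoters of the 4 genes that rose in treated GFP-positive cells and have an entry are shown over the 250 bases before the start, 5′ to 3′ on the strand of the gene. Capitals mark matches to the letters searched, on both strands, which were TGATGNAAN (a C/EBP-ATF composite), CCACG (part of an ER stress element), TGACGTG (an unfolded protein response element), CACGTG (the E-box of MITF/TFE and other bHLH factors), ACGTG (the core of a hypoxia response element, contained in the E-box on both strands) and the palindromic NRF1 element. The windows lie at chr12:71839509-71839758 (TBC1D15, plus strand), chr10:131981924-131982173 (BNIP3, minus strand), chr3:179347459-179347708 (MFN1, plus strand) and chr3:193592958-193593207 (OPA1, plus strand).
TBC1D15: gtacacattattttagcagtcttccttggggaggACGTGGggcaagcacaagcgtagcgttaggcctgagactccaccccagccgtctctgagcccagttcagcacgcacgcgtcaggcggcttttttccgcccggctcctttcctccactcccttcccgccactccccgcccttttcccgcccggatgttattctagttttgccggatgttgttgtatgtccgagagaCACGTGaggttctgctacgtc
BNIP3: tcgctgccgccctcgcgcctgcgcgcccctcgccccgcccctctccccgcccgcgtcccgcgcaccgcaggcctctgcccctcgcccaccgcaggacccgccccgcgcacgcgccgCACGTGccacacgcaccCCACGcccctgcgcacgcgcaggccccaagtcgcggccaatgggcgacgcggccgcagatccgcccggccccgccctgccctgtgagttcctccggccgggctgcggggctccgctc
MFN1: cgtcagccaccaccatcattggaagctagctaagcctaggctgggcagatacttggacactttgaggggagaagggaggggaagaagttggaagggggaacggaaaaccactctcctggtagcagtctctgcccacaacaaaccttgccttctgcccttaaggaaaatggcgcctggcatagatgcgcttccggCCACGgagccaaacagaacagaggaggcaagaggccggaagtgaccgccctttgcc
OPA1: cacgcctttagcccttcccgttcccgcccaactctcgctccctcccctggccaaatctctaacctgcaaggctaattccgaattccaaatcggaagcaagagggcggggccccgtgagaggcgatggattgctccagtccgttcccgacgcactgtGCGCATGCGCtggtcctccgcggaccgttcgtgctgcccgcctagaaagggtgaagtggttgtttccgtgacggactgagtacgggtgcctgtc

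Across all 35116 promoters of 300 bases in the table, CACGTG was present in 7.26%, ACGTG in 21.4%, CCACG in 38.1%, TGATGNAAN in 3.61%, TGACGTG in 1.97% and the NRF1 element in 1.24%. TBC1D15 held CACGTG starting at -21 and ACGTG at -216, the latter overlapped by CCACG on the other strand, with positions counted from the start site to the leftmost base of the match. For TBC1D15, BNIP3 and OPA1 the RefSeq start lies inside the gene span given below (GENCODE release 44). The CACGTG of TBC1D15 at -21 falls within that span. BNIP3 held CACGTG at -134 and CCACG at -117, MFN1 held CCACG at -56, and OPA1 held the NRF1 element at -94. Among the other genes with an entry, DNM1L held CCACG at +25 on the other strand, and the windows of FUNDC1 and MFN2 held none of the 6 sets of letters. A match in a window this short describes the letters only and shows no binding.

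The first comparison asked how mitophagy and fusion-fission genes responded to cis-chlordane in the GFP-positive cells. TBC1D15 rose about 5-fold, BNIP3L, MFN1 and BNIP3 rose by less than 2-fold, OPA1 rose slightly and PINK1 fell slightly, while FUNDC1, MFN2 and DNM1L did not pass the test. Of the 9 genes, 6 passed (quasi-likelihood F-test of edgeR, p adjusted by Benjamini-Hochberg over 15333 genes and under 0.05), 5 of them higher and 1 lower in treated cells. Of all genes tested, 50.9% passed (26.5% higher and 24.4% lower), so that the share of these genes that changed is read against a large background. With a fold change of at least 2 added, 1 of the 9 genes passed, against 24% of all genes. The same 6 genes did not overlap between treated and control libraries, as was the case for 57.5% of all genes tested.

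**Figure D1:**
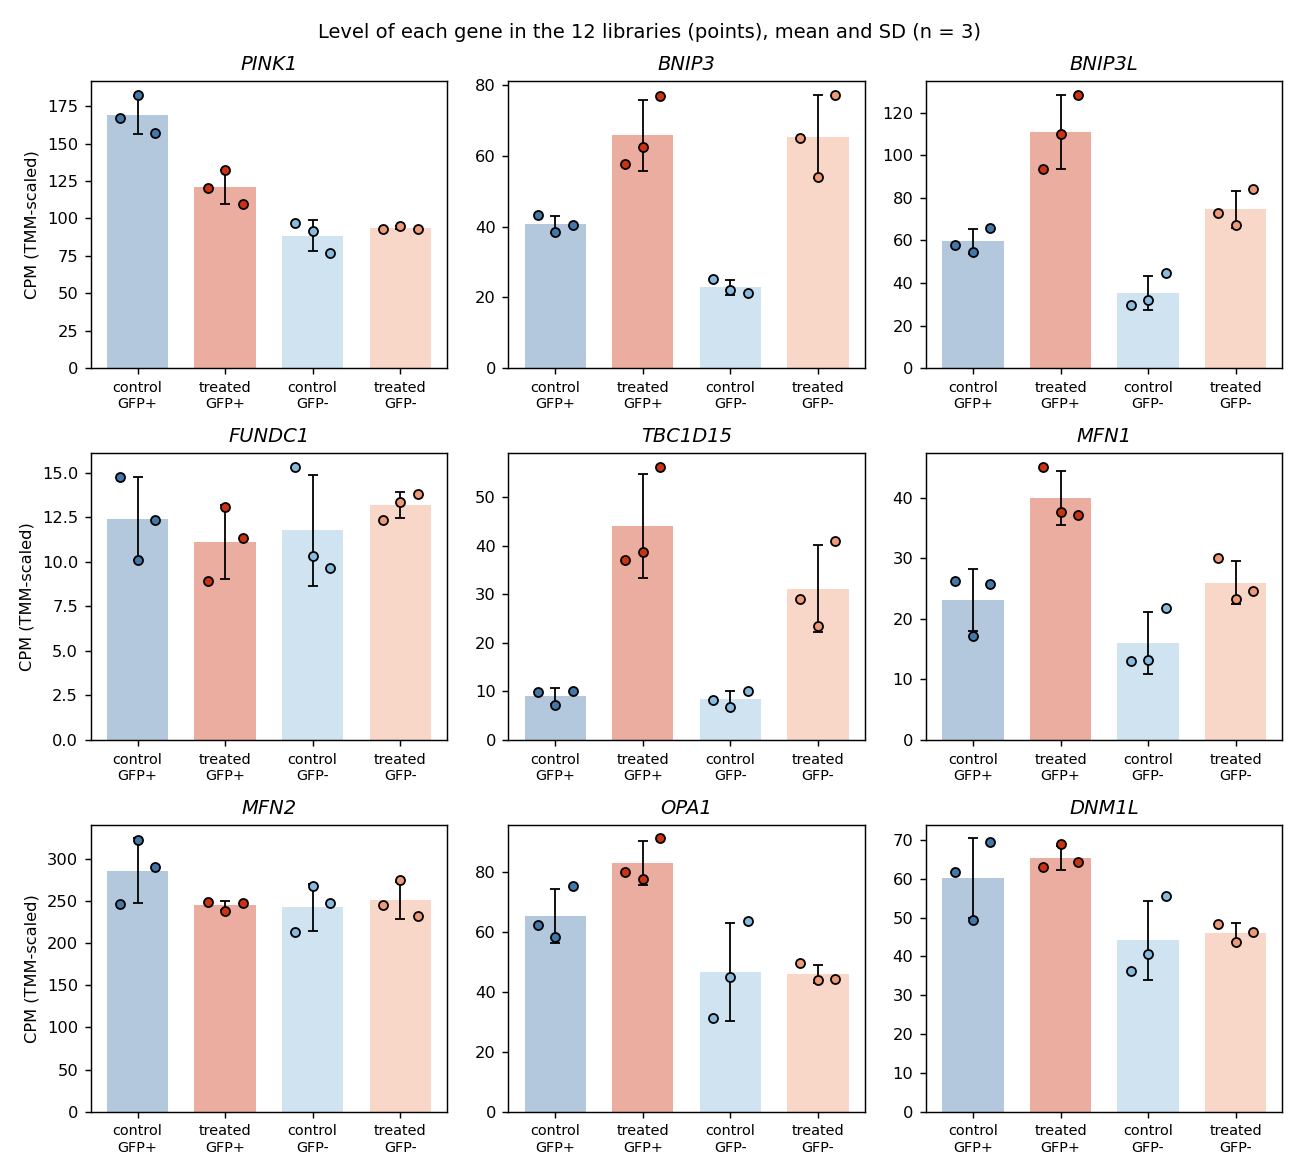
Level of each of the 9 genes in TMM-scaled CPM (vertical axis, from 0) in the 4 groups of 3 libraries. Points are libraries in the order of their replicate numbers, bars are means and error bars are SD. TBC1D15, BNIP3 and BNIP3L in both treated groups sit above all control libraries of the same sort fraction, whereas the 4 groups of FUNDC1 and of MFN2 overlap.

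TBC1D15 (chromosome 12, 71839707 to 71927248 in hg38, plus strand) stood at 9.77, 7.24 and 10.1 CPM in control and at 37.0, 38.7 and 56.3 CPM in treated GFP-positive libraries. All treated libraries lay more than 3-fold above the highest control library. The log2 fold change was 2.35 (SE 0.21, edgeR adjusted p = 1.5e-11), and 2.35% of all genes tested had a higher one.

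Both BNIP3 paralogues rose. BNIP3L (NIX; chromosome 8, 26383054 to 26505636) was at 57.9, 54.6 and 65.9 CPM in control and at 93.6, 110.2 and 128 CPM in treated GFP-positive libraries, a log2 fold change of 0.96 (SE 0.17, edgeR adjusted p = 1.2e-05). BNIP3 (chromosome 10, 131967684 to 131981967) was at 43.3, 38.5 and 40.5 CPM in control and at 57.8, 62.6 and 77.0 CPM in treated libraries, a log2 fold change of 0.76 (SE 0.17, edgeR adjusted p = 3.9e-04). In each case the lowest treated library exceeded the highest control library. FUNDC1 (chromosome X, 44523639 to 44542859), the hypoxia-regulated receptor, overlapped between groups at 14.8, 10.1 and 12.4 CPM in control and 8.94, 13.1 and 11.3 CPM in treated libraries, a log2 fold change of -0.09 (SE 0.21, edgeR adjusted p = 0.75).

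PINK1 (chromosome 1, 20633458 to 20651511) was the only one of the 9 genes called lower. Its levels were 167, 183 and 157 CPM in control and 120.3, 132 and 109.5 CPM in treated GFP-positive libraries, a log2 fold change of -0.42 (SE 0.16, edgeR adjusted p = 0.025). The libraries did not overlap, but the adjusted p rose above 0.05 when control replicate 1 (0.066), control replicate 2 (0.075), treated replicate 1 (0.071) or treated replicate 3 (0.092) was left out, and with library size alone as the scaling (0.077).

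Of the fusion genes, MFN1 (chromosome 3, 179347709 to 179394936) rose from 26.3, 17.2 and 25.9 CPM in control to 45.2, 37.6 and 37.2 CPM in treated GFP-positive libraries, a log2 fold change of 0.86 (SE 0.19, edgeR adjusted p = 2.9e-04). Its paralogue MFN2 (chromosome 1, 11980181 to 12015211), present at 246, 322 and 290.4 CPM in control and 248, 238 and 247 CPM in treated libraries, had a log2 fold change of -0.16 (SE 0.16, edgeR adjusted p = 0.41), with overlapping groups. OPA1 (chromosome 3, 193593144 to 193697811) moved from 62.5, 58.4 and 75.6 CPM to 80.3, 77.8 and 91.4 CPM, a log2 fold change of 0.41 (SE 0.17, edgeR adjusted p = 0.037). The lowest treated library of OPA1 was barely above the highest control library. The call for OPA1 was lost with RLE scaling (adjusted p = 0.052), without a filter on low counts (0.054), in the fit of all 12 libraries (0.19) and when control replicate 1 (0.12), control replicate 2 (0.14), treated replicate 1 (0.074) or treated replicate 3 (0.11) was left out. DNM1L (chromosome 12, 32679200 to 32745650), the fission GTPase, overlapped at 61.6, 49.2 and 69.6 CPM in control and 62.9, 68.8 and 64.3 CPM in treated libraries, a log2 fold change of 0.19 (SE 0.17, edgeR adjusted p = 0.37).

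Per kilobase of exon (GENCODE release 44), the order of levels in control GFP-positive cells ran from PINK1 at 35.0 ± 2.66 CPM per kb (SD, n = 3) and MFN2 at 27.9 ± 3.73 through BNIP3L at 14.3 ± 1.39, BNIP3 at 10.1 ± 0.587, FUNDC1 at 9.87 ± 1.85, DNM1L at 7.46 ± 1.27 and OPA1 at 7.25 ± 0.996 to MFN1 at 3.89 ± 0.869 and TBC1D15 at 1.10 ± 0.192. From BNIP3 to OPA1 each gene overlapped its neighbour in this order, and the other neighbours did not overlap. In treated GFP-positive cells BNIP3L came first at 26.7 ± 4.20 CPM per kb, within the spread of PINK1 at 25.0 ± 2.35 and MFN2 at 23.9 ± 0.530. TBC1D15 remained last at 5.35 ± 1.30 CPM per kb despite having the largest fold change of the 9 genes. MFN1 stayed below MFN2 in all 4 groups.

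Genes with AT-rich transcripts were higher and those with GC-rich transcripts lower in treated GFP-positive cells in general. Genes with a GC content under 40% (n = 2455) had a median log2 fold change of 0.51 and those over 50% (n = 6642) one of -0.32. BNIP3L, FUNDC1, TBC1D15, MFN1, OPA1 and DNM1L, 6 of the 9 genes, have a GC content under 40%, and PINK1, BNIP3 and MFN2 one over 50%. With the GC trend of each library removed by a loess fit, TBC1D15 (log2 fold change 1.83), BNIP3 (0.89), MFN1 (0.50, adjusted p = 0.020) and BNIP3L (0.49, adjusted p = 0.0038) still passed as higher. The call for OPA1 ended at -0.03 (adjusted p = 0.88) and that for PINK1 at -0.25 (adjusted p = 0.093), while FUNDC1 then passed as lower at -0.54 (adjusted p = 0.027).

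**Figure D2:**
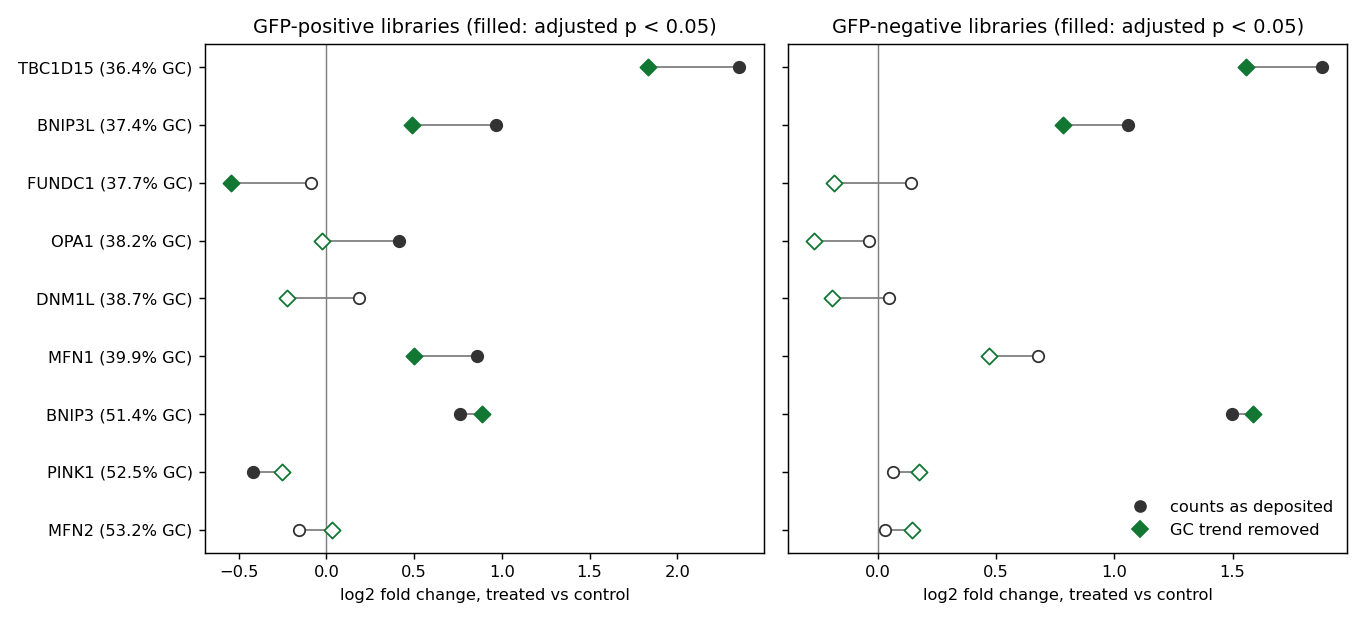
Log2 fold change of treated against control (horizontal axis) for the 9 genes ordered by transcript GC content, in GFP-positive (left) and GFP-negative (right) libraries. Circles are from the counts as deposited and diamonds from the fit with the GC trend removed, filled where the adjusted p is under 0.05. The 6 genes of low GC content shift to the left and the 3 of high GC content to the right, and TBC1D15, BNIP3 and BNIP3L stay filled in both fractions.

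Some of these genes share their locus with a gene on the opposite strand. PNMA2 overlaps BNIP3L by 936 bases, PINK1-AS overlaps PINK1 and YARS2 overlaps DNM1L. The library kit keeps the strand, but whether reads were counted by strand is not given in the sources used here, so the values of BNIP3L, PINK1 and DNM1L are uncertain to that extent. In GFP-positive cells the log2 fold change was -0.33 for PNMA2 (edgeR adjusted p = 0.10), 0.01 for PINK1-AS (edgeR adjusted p = 0.98) and -0.14 for YARS2 (edgeR adjusted p = 0.57). PNMA2, whose counts over the 12 libraries came to 119% of those of BNIP3L, moved with BNIP3L in 2 other comparisons. It was higher by 0.74 with treatment in GFP-negative cells (edgeR adjusted p = 0.030) and by 1.10 in GFP-positive against GFP-negative control cells (edgeR adjusted p = 0.0035), but stood at 0.08 between the treated fractions (edgeR adjusted p = 0.73), and its part in the values of BNIP3L was not tested. YARS2 was at -0.88 and -1.04 between the control and the treated fractions, where DNM1L was at 0.34 and 0.53.

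In the GFP-negative cells, the same question was asked of the cells that did not express the reporter. TBC1D15, BNIP3 and BNIP3L rose at least 2-fold there, and the other 6 genes did not pass the test. The 3 genes called of 9 compare with 31.5% of the 15513 genes tested (15.3% higher and 16.2% lower), and with 18.3% once a fold change of at least 2 was required. MFN1 joined them among the 4 genes whose groups did not overlap, as 46.6% of all genes did not.

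TBC1D15 went from 8.21, 6.75 and 10.1 CPM in control to 29.0, 23.5 and 41.0 CPM in treated GFP-negative libraries, a log2 fold change of 1.88 (SE 0.25, edgeR adjusted p = 6.2e-04). BNIP3 went from 25.3, 22.0 and 21.3 CPM to 65.1, 54.0 and 77.3 CPM, a log2 fold change of 1.50 (SE 0.18, edgeR adjusted p = 3.9e-04). BNIP3L went from 29.6, 32.0 and 44.5 CPM to 72.6, 67.0 and 84.0 CPM, a log2 fold change of 1.06 (SE 0.19, edgeR adjusted p = 0.0030). For each of them every treated library was above every control library. Without control GFP-negative replicate 3, the library with haemoglobin transcripts, the log2 fold changes were 2.03, 1.45 and 1.25 and all 3 still passed. With the GC trend removed they also passed.

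MFN1 stood at 13.1, 13.2 and 21.9 CPM in control and 30.0, 23.3 and 24.6 CPM in treated GFP-negative libraries, a log2 fold change of 0.68 (SE 0.24, edgeR adjusted p = 0.056). Its highest control value was that of replicate 3, and without this library MFN1 passed at 0.96 (adjusted p = 0.0052). MFN1 also passed with DESeq2 (adjusted p = 0.029) and in the fit of all 12 libraries (adjusted p = 0.024). PINK1 was at 96.8, 91.4 and 76.8 CPM in control and 93.1, 94.8 and 93.1 CPM in treated GFP-negative libraries, a log2 fold change of 0.06 (SE 0.15, edgeR adjusted p = 0.78). FUNDC1 (0.14, SE 0.23), MFN2 (0.03, SE 0.16), OPA1 (-0.04, SE 0.24) and DNM1L (0.05, SE 0.19) had log2 fold changes smaller than their standard errors, with overlapping groups.

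**Figure D3:**
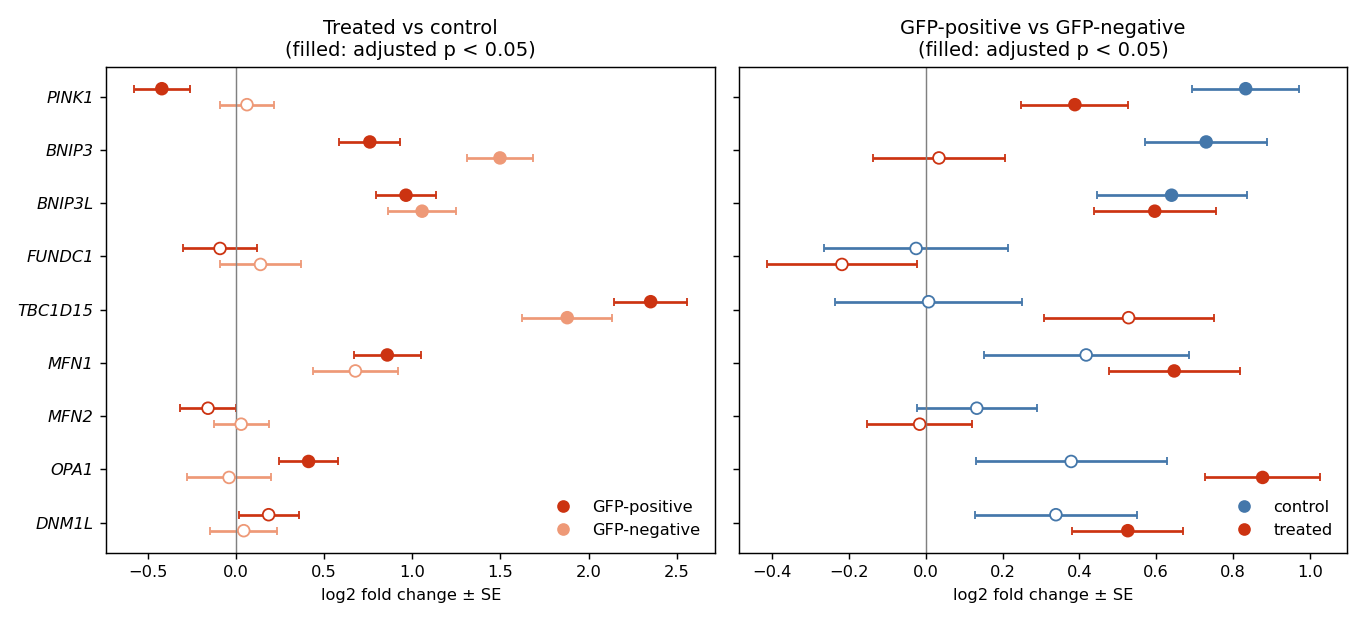
Log2 fold change with its standard error (horizontal axis) for each of the 9 genes, on the left treated against control within each sort fraction and on the right GFP-positive against GFP-negative within each treatment. Filled points have an adjusted p under 0.05. TBC1D15, at 2.35 and 1.88, has the largest change with treatment in both fractions, and PINK1 is lower with treatment in GFP-positive cells at -0.42 but not called in GFP-negative cells at 0.06.

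Whether the response differed between the fractions was tested as an interaction between treatment and sort over all 12 libraries. Of the 9 genes, 0 passed at an adjusted p under 0.05 (edgeR), against 2.19% of the 16226 genes tested, and 2 had an unadjusted p under 0.05. BNIP3 responded by 0.83 less on the log2 scale in GFP-positive than in GFP-negative cells (interaction -0.83, SE 0.24, edgeR adjusted p = 0.091), and for BNIP3 DESeq2 gave -0.76 with an adjusted p of 0.035. For PINK1 the interaction was -0.57 (SE 0.19, edgeR adjusted p = 0.15). With a block that joins the GFP-positive and GFP-negative library of the same treatment and replicate number, BNIP3 (-0.82, edgeR adjusted p = 0.013) and PINK1 (-0.58, edgeR adjusted p = 0.047) passed, as they did with the GC trend also removed. Over all genes, the block gave 1264 calls of 16226 against 355 without it, and DESeq2 gave 798 of 15422. Without control GFP-negative replicate 3 and without a block, 0 of the 9 genes passed in edgeR, with BNIP3 at -0.78 (adjusted p = 0.13) and PINK1 at -0.48 (adjusted p = 0.27). TBC1D15 had an interaction of 0.38 (SE 0.34, edgeR adjusted p = 0.62), BNIP3L one of -0.18 (SE 0.25, edgeR adjusted p = 0.78) and OPA1 one of 0.36 (SE 0.29, edgeR adjusted p = 0.58). The 2 treatment comparisons share no library. Libraries of the same treatment and replicate number deviated together across the fractions (r of 0.085 to 0.36), so the 2 comparisons are not taken as independent.

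The sort comparisons showed where each gene stood before and after treatment. In control cells PINK1, BNIP3 and BNIP3L were higher in GFP-positive than in GFP-negative cells, and the other 6 genes did not pass. These 3 of 9 genes compare with 40.2% of the 15404 genes tested (17.1% higher and 23.1% lower in GFP-positive cells). The same 3 did not overlap between the fractions, against 53.2% of all genes. PINK1 showed the widest gap, at 157 to 183 CPM in GFP-positive and 76.8 to 96.8 CPM in GFP-negative control libraries, a log2 fold change of 0.83 (SE 0.14, edgeR adjusted p = 9.8e-04). BNIP3 was higher by 0.73 (SE 0.16, edgeR adjusted p = 0.0046) and BNIP3L by 0.64 (SE 0.20, edgeR adjusted p = 0.025) on the log2 scale. BNIP3L lost its call without control GFP-positive replicate 1 (adjusted p = 0.064), control GFP-positive replicate 3 (0.093) or control GFP-negative replicate 2 (0.084).

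Several values of this comparison moved with single control GFP-negative libraries, among them replicate 3, the library with haemoglobin transcripts. Without control GFP-negative replicate 3, 6 of the 9 genes were higher in GFP-positive control cells, with MFN1 at 0.73 (edgeR adjusted p = 0.013), OPA1 at 0.70 (edgeR adjusted p = 0.0084) and DNM1L at 0.57 (edgeR adjusted p = 0.024) added. With it, their log2 fold changes were 0.42, 0.38 and 0.34. Calls over all genes also rose, from 6192 of 15404 with that library to 7379 of 15674 without it. OPA1 stood at 31.3 and 45.0 CPM in the first and second control GFP-negative libraries and at 63.7 CPM in the third, which lay within the GFP-positive range of 58.4 to 75.6 CPM. Leaving out control GFP-negative replicate 1 instead gave 0.28 for MFN1, 0.15 for OPA1 and 0.21 for DNM1L, which did not pass. With the GC trend removed and all libraries kept, they stood at 0.30, 0.27 and 0.21 (edgeR adjusted p = 0.25, 0.22 and 0.21).

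In treated cells OPA1, MFN1, BNIP3L, DNM1L and PINK1 were higher in the GFP-positive fraction, 5 of 9 genes against 49.8% of the 15416 genes tested (24.9% higher and 24.9% lower). The same 5 genes did not overlap, against 57.8% of all genes. OPA1 ranged from 77.8 to 91.4 CPM in GFP-positive and from 44.1 to 49.6 CPM in GFP-negative treated libraries, a log2 fold change of 0.88 (SE 0.15, edgeR adjusted p = 4.0e-04). MFN1 was higher by 0.65 (SE 0.17), BNIP3L by 0.60 (SE 0.16), DNM1L by 0.53 (SE 0.14) and PINK1 by 0.39 (SE 0.14) on the log2 scale. BNIP3, at 0.03 (SE 0.17, edgeR adjusted p = 0.88), had nearly the same level in both fractions after treatment, 65.8 ± 10.0 and 65.5 ± 11.7 CPM (SD, n = 3 each).

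TBC1D15 had a log2 fold change of 0.53 between the treated fractions (SE 0.22, edgeR adjusted p = 0.063). Treated libraries with the same replicate number deviated together, and with the replicate number as a block TBC1D15 passed at 0.53 (SE 0.15, edgeR adjusted p = 0.0024). Removal of the GC trend left 3 calls in the treated fractions, OPA1 (0.56) and PINK1 (0.52) higher and FUNDC1 (-0.55) lower in GFP-positive cells, and took away those of MFN1, BNIP3L and DNM1L. With the block and the GC correction together, MFN1 passed as well and TBC1D15 did not (0.17, edgeR adjusted p = 0.24). Genes under 40% GC had a median log2 fold change of 0.35 and those over 50% one of -0.20 in this comparison. Without treated GFP-positive replicate 1, 3 genes passed, with MFN1 (adjusted p = 0.052) and PINK1 (adjusted p = 0.10) no longer called. PINK1 kept its call in 1 of the 6 fits that left out a library, and also lost it without treated GFP-positive replicate 2 (adjusted p = 0.14) and without treated GFP-negative replicate 1 (0.12), 2 (0.052) or 3 (0.066).

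Over the 4 groups, FUNDC1 and MFN2 showed no separation of any neighbouring groups. PINK1 stood highest in control GFP-positive cells, followed without overlap by treated GFP-positive cells and then by the GFP-negative groups, which overlapped. BNIP3L was ordered without any overlap from treated GFP-positive over treated GFP-negative and control GFP-positive to control GFP-negative cells. For BNIP3 and TBC1D15 the treated groups overlapped with each other and lay above both control groups.

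Other genes of the same pathways were taken from lists, and those beyond the 3 largest changes of a list are named after their values were seen. Their counts are set against 26.5% higher and 24.4% lower of all genes tested in GFP-positive cells, and 15.3% and 16.2% in GFP-negative cells. With the GC trend removed, an alternative chosen for the lists after the data were seen, these shares were 24.5% and 22.4% in GFP-positive cells. In GFP-negative cells they were then 16.2% and 16.2%. Without control GFP-negative replicate 3 and with the GC trend left in, they were 17.5% and 17.4% there. In the ubiquitin arm of mitophagy, 6 of 12 genes were higher and 0 lower in treated GFP-positive cells, with a median log2 fold change of 0.31 against 0.03 over all genes tested. They included the deubiquitinases USP15 (1.09, SE 0.21) and USP8 (0.87, SE 0.21) and the kinase TBK1 (0.79, SE 0.22), which phosphorylates autophagy adaptors. In GFP-negative cells 1 of the 12 genes was called, the ligase MARCHF5 (0.49, after 0.64 in GFP-positive cells), and USP15 (0.72, adjusted p = 0.16), USP8 (0.74, adjusted p = 0.051) and TBK1 (0.54, adjusted p = 0.10) did not pass. Without control GFP-negative replicate 3, USP15, USP8 and TBK1 passed there with MARCHF5, 4 of the 12 genes. With the GC trend removed, 5 genes were higher in GFP-positive cells, and TBK1 (0.24, adjusted p = 0.32) and MARCHF5 (0.23, adjusted p = 0.17) were not among them. In GFP-negative cells 0 of the 12 genes then passed. Of the 6 other membrane receptors 0 were higher and 2 were lower, FKBP8 from 782 ± 143 to 388 ± 48.1 CPM (log2 fold change -0.94) and AMBRA1 from 113 ± 23.7 to 65.1 ± 9.18 CPM (-0.73). In GFP-negative cells BCL2L13 was higher (0.74) and FKBP8 lower (-0.46), the latter not with the GC trend removed (-0.17, adjusted p = 0.38). With the GC trend removed, BCL2L13 was also called higher in GFP-positive cells, where FKBP8 and AMBRA1 stayed lower.

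The adaptors that link ubiquitin to the autophagosome were all higher, 5 of 5 in GFP-positive cells (median 1.13) and 5 of 5 in GFP-negative cells (median 1.41, against -0.01 over all genes). SQSTM1 (p62) had log2 fold changes of 1.84 and 2.66 in the respective fractions. OPTN went from 77.0 ± 2.72 to 185 ± 4.23 CPM in GFP-positive and from 30.8 ± 2.05 to 83.2 ± 4.53 CPM in GFP-negative cells. CALCOCO2 (NDP52) went from 27.2 ± 1.92 to 56.9 ± 7.88 CPM and from 25.8 ± 1.69 to 93.5 ± 10.8 CPM. TAX1BP1 (1.05 and 1.37) and NBR1 (0.86 and 1.17) completed the list. Of the 6 ATG8-family genes, 3 were higher and 0 lower in each fraction, namely MAP1LC3B (2.54 in both), GABARAPL1 (1.11 and 1.67) and the sparse MAP1LC3C (0.413 ± 0.223 to 3.66 ± 0.970 CPM in GFP-positive cells).

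TBC1D15 belongs to the RAB7 cycle, in which 2 of the 8 other genes were higher and 1 lower in treated GFP-positive cells (median 0.13), shares no larger than over all genes. RABGEF1, an exchange factor upstream of RAB7, had a log2 fold change of 0.95, and MON1B and MON1A, alternative subunits of the RAB7 exchange factor, moved in opposite directions at 0.45 and -1.19. In GFP-negative cells RABGEF1 (0.75), MON1B (0.63) and TBC1D17 (0.50), a paralogue of TBC1D15, were higher and MON1A (-0.67) was lower, of which TBC1D17 was not called without control GFP-negative replicate 3.

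Among 10 regulators of fusion, 5 were higher and 1 lower in GFP-positive cells (median 0.48, or 0.20 with the GC trend removed). YME1L1, a protease that cleaves OPA1, went from 68.5 ± 7.73 to 164 ± 31.0 CPM, MIGA1 (mitoguardin) from 6.59 ± 0.909 to 14.9 ± 3.65 CPM, and PLD6 from 0.741 ± 0.295 to 2.54 ± 0.365 CPM. SLC25A46 (0.89) and FAF2 (0.54) were also higher and prohibitin PHB (-0.72) was lower, SLC25A46 not with the GC trend removed (0.20, adjusted p = 0.26). In GFP-negative cells YME1L1 (1.13), MIGA1 (1.36) and FAF2 (0.62) were higher and 0 genes lower (median 0.24), and without control GFP-negative replicate 3 SLC25A46 was also higher and PHB lower. Of 12 fission factors, 3 were higher and 3 lower in GFP-positive cells, about the shares over all genes, with a median of 0.21, or 0.05 with the GC trend removed. MTFR1 (1.31) and MTFP1 (1.13), promoters of fission, were higher with MFF (0.43), a receptor for DNM1L. INF2 (-0.58), a formin that primes constriction, was lower with MTFR1L (-0.53) and DNM2 (-0.51), although the calls of INF2 (-0.15, adjusted p = 0.48), DNM2 (-0.11, adjusted p = 0.54) and MFF (-0.03, adjusted p = 0.86) were lost with the GC trend removed. In GFP-negative cells MTFR1 (1.25), MIEF2 (0.81) and MFF (0.49) were higher and 0 genes lower, and MFF was not called without control GFP-negative replicate 3.

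The transport of mitochondria along axons involves RHOT1 (Miro1) and the TRAK adaptors. Of 6 such genes, 3 were higher and 1 lower in GFP-positive cells (median 0.24). TRAK1 fell from 167 ± 13.8 to 85.7 ± 7.99 CPM, whereas TRAK2 rose from 28.8 ± 3.67 to 47.2 ± 8.67 CPM and RHOT1 from 36.8 ± 6.30 to 50.5 ± 5.07 CPM. RHOT1 was not called with the GC trend removed (0.21, adjusted p = 0.23). SYBU was higher in both fractions (0.53 and 0.63). In GFP-negative cells TRAK2 was at 0.99 and TRAK1 at -0.59, and TRAK2 alone was called without control GFP-negative replicate 3. The MICOS complex, which holds cristae junctions together with OPA1, had 2 of 7 genes higher (CHCHD3 at 0.94, APOOL at 0.72) and 3 lower (MICOS10 at -0.67, MICOS13 at -0.57 and CHCHD6 at -0.47) in GFP-positive cells, of which CHCHD3 and MICOS10 passed with the GC trend removed. Over all genes tested there, 26.5% were higher and 24.4% lower. In GFP-negative cells the adjusted p was 0.073 for CHCHD3, 0.26 for APOOL and 0.16 for MICOS10 (edgeR), and without control GFP-negative replicate 3 APOOL passed as higher and MICOS10 as lower. Of 9 genes of mitochondrial biogenesis, 5 were higher and 1 lower in GFP-positive cells (median 0.51), against 1 higher, TFB2M at 1.27, and 0 lower in GFP-negative cells (median 0.09). The gene called lower was ESRRA (-0.66), and GABPA (0.74) and PPRC1 (0.51) were among the higher ones. The mitochondrial transcription factor TFB2M rose from 4.15 ± 1.10 to 19.2 ± 5.87 CPM, and TFB2M and PPRC1 were the genes of this list that passed as higher with the GC trend removed, when the median was 0.31. TFAM (0.85) and PPARGC1A (1.01) then stood at 0.31 and 0.65, GABPA at 0.25 and ESRRA at -0.15.

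BNIP3 and BNIP3L are known targets of HIF-1. Of 12 other HIF-1 targets tested in GFP-positive cells, 8 were higher and 1 lower (median 0.88), and of 13 in GFP-negative cells 9 were higher and 2 lower (median 0.82). Over all genes, 26.5% were higher and 24.4% lower in GFP-positive cells, and 15.3% and 16.2% in GFP-negative cells. With the GC trend removed, 7 targets were higher in GFP-positive cells (median 0.60) and 8 in GFP-negative cells (median 0.62), ANKRD37 losing its call in both. VEGFA went from 19.6 ± 2.04 to 323 ± 45.7 CPM and NDRG1 from 46.4 ± 8.47 to 127 ± 18.0 CPM in GFP-positive cells, and ADM stood at 0.218 ± 0.108 and 1.29 ± 0.00497 CPM. The glycolytic enzyme LDHA was lower in both fractions (-0.76 and -1.08), and the glucose transporter SLC2A1 was lower in GFP-negative cells (-0.74). Without control GFP-negative replicate 3, 8 targets were higher and 3 lower in GFP-negative cells. The part of HIF-1 in the rise of BNIP3 and BNIP3L was not tested.

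**Figure D4:**
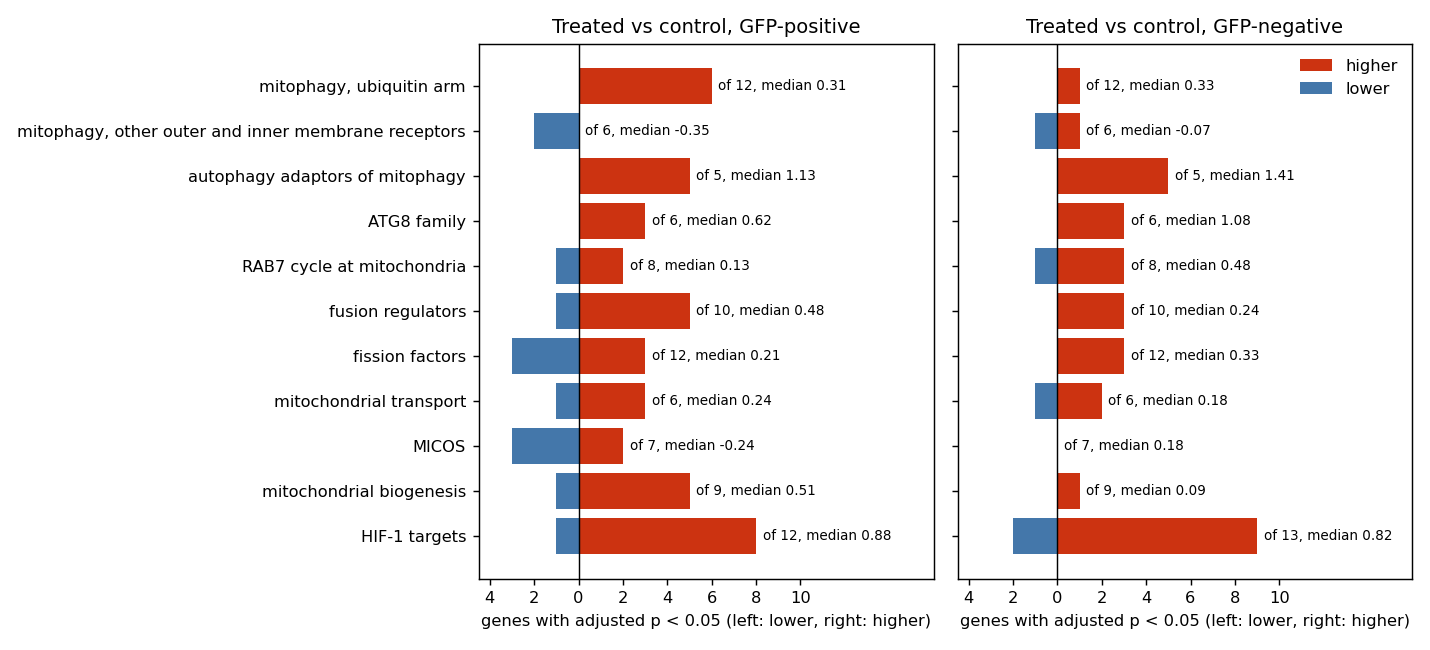
Number of genes of each list with an adjusted p under 0.05 (horizontal axis, higher to the right and lower to the left of 0) in treated against control GFP-positive (left) and GFP-negative (right) cells, with the number tested and the median log2 fold change. The 5 autophagy adaptors are all higher in both fractions, whereas the 12 fission factors have 3 higher and 3 lower in GFP-positive cells.

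The genes most like each of the 9 were sought over the 12 libraries among 13813 genes, by Pearson's r of log2 CPM. The libraries fall into 4 groups, so these values mostly describe shared differences between groups. TBC1D15 was most like GOLT1B (r = 0.995) and RBM39 (r = 0.994), BNIP3L most like OSTM1 (0.991) and YIPF6 (0.986), and BNIP3 most like YPEL5 (0.989) and LAPTM4A (0.978). NUMBL (0.977) was among the genes most like PINK1, OPA1 was most like CXADR (0.985) and ZNF391 (0.976), DNM1L most like SCRN3 (0.968) and HDX (0.959), and MFN1 most like USP48 (0.961) and USP34 (0.960). The values were lower for MFN2, with PCDHGA10 (0.896) and GORASP1 (0.888), and for FUNDC1, with TXN (0.944) and UQCRHL (0.859). Among the 9 genes, OPA1 and DNM1L were the closest pair (r = 0.944), followed by BNIP3L and MFN1 (0.911) and BNIP3 and BNIP3L (0.904).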

How the data were processed

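The authors joined the sequencing lanes per library, aligned single-end reads with HISAT2 to hg38 and deposited whole-number counts per gene, which per the labels came from featureCounts and are not normalized. The strand setting of the counting is not given in the sources used here. Each library's treatment follows the labels' treatment field, since every title, that of treated libraries included, opens with "untreated". Of the count columns, 0 were left unused.

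Each comparison was fitted on the 6 libraries it is about (the interaction on all 12) with edgeR 4.0.16 in R 4.3.3, with TMM scaling, filterByExpr (minimum count 10, minimum total 15), the quasi-likelihood F-test and Benjamini-Hochberg adjustment over all genes tested. A gene passed where the adjusted p was below 0.05. The study also required a minimum fold change of 2, which is given beside it. Exact permutation tests were not used, because 3 against 3 libraries allow no p below 0.1. Alternatives were DESeq2 1.42.0, RLE scaling, scaling by library size alone, other filters on low counts (none, or 10 counts or more throughout), a replicate block, removal of the GC trend (loess, span 0.5), both together, a fit of all 12 libraries and each library left out. For treatment in GFP-positive cells and the interaction, the main, block and GC-corrected fits were run on simulated counts with known changes. Those counts had the same spread for all genes, no GC trend and no shared replicate effect. They could therefore not test how the fits handle these features.

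Whether replicate numbers pair the libraries was checked from deviations from the group means over 16226 genes. GFP-positive and GFP-negative libraries of the same number correlated at 0.16, 0.20 and 0.36 in treated and at 0.28, 0.085 and 0.21 in control cells. Each GFP-positive library correlated best with the GFP-negative library of its own number. Treated and control libraries of the same number correlated at -0.047 to 0.28. The main fits of the sort comparisons and of the interaction carry no block, so this pairing enters only through the alternatives with a block. No 2 libraries of a group agreed within sampling noise.

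Positions, exon lengths and GC content came from GENCODE release 44 on hg38, which is not the authors' annotation release, and 25763 of 28278 symbols were matched. GC content was known for 95.6% of the genes tested in GFP-positive cells. Counts set the precision, and the p-values cover the spread between libraries only. The 9 genes and all lists were chosen with earlier results of these data known. The rule for other named genes was up to 3 genes per list with the largest change among those that passed in GFP-positive cells, and for each of the 9 genes the 2 most alike (mean of at least 1 CPM, prior count 2), of which 1 is not reported here. Plots used matplotlib 3.10.9 (Python 3.11.15). Protein sequences were not used here.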

Additional observations from a re-analysis of the deposited data

Results flagged for a closer look

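For BNIP3, the response to treatment differed between the sort fractions by the test of the interaction in DESeq2 (log2 -0.76, SE 0.24, adjusted p = 0.0348), higher with treatment in 3 of 3 libraries of both fractions. The same interaction in edgeR had an adjusted p of 0.091, and over the alternatives run the adjusted p ranged from 0.013 to 0.33. No group had more than 3 libraries, so single libraries were not tested as outliers.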

How the results depend on the processing

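Under the alternatives run, the calls of TBC1D15, BNIP3 and BNIP3L as higher with treatment held in both fractions, as did that of MFN1 in GFP-positive cells. Library size alone moved the median of all genes by over 0.1 on the log2 scale, from 0.03 to 0.14 for treatment in GFP-positive cells, from 0.05 to 0.22 between treated fractions and from -0.05 to 0.20 for the interaction. Depth did not limit detection of the 9 genes.

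The counts of genes called moved by over 1.5 times in these cases. In control fractions, leaving out 1 library gave 2 to 6 calls, with 6 without GFP-negative replicate 3. Over all genes that fit gave 7379 calls, against 6192 with all libraries. In treated fractions, removal of the GC trend gave 3 calls and leaving out 1 library gave 3 to 5, with 3 without GFP-positive replicate 1. For the interaction there were 0 calls with edgeR and no block and 1 with DESeq2. A block by culture (treatment and replicate number) gave 2 calls for the interaction (BNIP3, adjusted p = 0.013, and PINK1, adjusted p = 0.047), and the block with removal of the GC trend also gave 2. Over all genes that block gave 1264 calls of 16226, against 355 without it. The cause of these differences was not tested.

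Whether replicate numbers also pair treated with control libraries is not given in the sources used here. Treated and control libraries of the same number correlated at -0.047 to 0.28, which does not settle it. The replicate block left 6 and 3 calls for treatment in GFP-positive and GFP-negative cells. It gave 4 calls in control fractions, OPA1 being added, and 6 in treated fractions, TBC1D15 being added. The block changed no other call in these 4 comparisons. Same-numbered libraries of the control fractions correlated at 0.28, 0.085 and 0.21. Each GFP-positive library there correlated best with the GFP-negative library of its own number.

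Genes that had not passed, and OPA1, changed sign in some fits. For treatment in GFP-positive cells, the log2 fold change of FUNDC1 was 0.0076 with library size alone and -0.24 to 0.056 with 1 library left out. Removal of the GC trend without and with the replicate block gave 0.035 and 0.040 for MFN2, -0.025 and -0.025 for OPA1 and -0.22 and -0.22 for DNM1L. For treatment in GFP-negative cells, library size alone gave -0.032 for MFN2 and -0.030 for DNM1L, the replicate block gave 0.016 for OPA1, and GC removal without and with the block gave -0.18 and -0.11 for FUNDC1 and -0.20 and -0.19 for DNM1L. With 1 library left out the ranges were -0.029 to 0.14 for PINK1, -0.053 to 0.11 for MFN2, -0.26 to 0.25 for OPA1 and -0.075 to 0.24 for DNM1L. Between control fractions, FUNDC1 was 0.0060 with DESeq2, 0.00059 with RLE, 0.028 with library size alone, 0.076 in the fit of 12 libraries and -0.16 to 0.20 with 1 library left out. TBC1D15 was -0.0094 with at least 10 counts in every library, -0.16 and -0.15 with GC removal without and with the block, and -0.10 to 0.19 with 1 library left out. Between treated fractions, MFN2 was 0.15 with library size alone, 0.13 and 0.14 with GC removal without and with the block, and -0.083 to 0.071 with 1 library left out, where BNIP3 was -0.12 to 0.15. For the interaction, BNIP3L was 0.090 with library size alone and -0.38 to 0.085 with 1 library left out. GC removal without and with the block gave -0.053 and -0.060 for MFN1 and -0.11 and -0.12 for DNM1L, and 1 library left out gave -0.19 to 0.30 and -0.15 to 0.24.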
